A study of Mus musculus with 13 samples.

Results

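The genes described here are 10 inhibitors of the Wnt pathway, Axin2, Nkd1, Nkd2, Notum, Znrf3, Rnf43, Apcdd1, Dkk1, Kremen1 and Sfrp1, chosen by name. The choice was made with earlier results of these data known. All 10 were among the 23361 genes measured, and 9 of them passed the filter on low counts, which left 15132 genes for testing. Library totals ran from 23637021 to 37043914 fragments. They were followed in 13 RNA-seq libraries from mouse liver tumours, 5 given siYap-LNPs (siYap) and 8 given siLuciferase-LNPs (siLuc). Every animal carried the genotype Mst1-/-; Mst2Flox/Flox on a mixed C57BL/6 and 129Sv background. Adenoviral Cre removed Mst2 in the liver, so both groups lack these Hippo kinases and differ in the siRNA, which was given intravenously in lipid nanoparticles over 9 days. The age of the animals, and which tumours came from the same animal, are not given by the labels, so each p-value covers the spread between these libraries, some of which may be technical. Bulk tumour RNA was read, so tumour hepatocytes, vessels, stroma and blood cells are measured together. A change in the number of cells of a type cannot be told apart from a change in RNA per cell.

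Wnt ligands bind Frizzled receptors with Lrp5 or Lrp6 and stop the destruction complex from degrading beta-catenin, which then acts on genes with Tcf and Lef factors. Several target genes encode inhibitors of the same pathway, so that signalling limits itself. In normal liver this activity is highest around the central vein, where it sets the pericentral programme of hepatocytes. The 10 genes act at different steps. Axin2 is a scaffold of the destruction complex, and Nkd1 and Nkd2 bind Dishevelled inside the cell. Znrf3 and Rnf43 are membrane ubiquitin ligases that remove Frizzled receptors, and Apcdd1 is a membrane inhibitor. Notum is a secreted enzyme that strips the lipid from Wnt ligands, Dkk1 is a secreted antagonist of Lrp5 and Lrp6 with Kremen1 as its co-receptor, and Sfrp1 is a secreted Frizzled-like protein that binds Wnt ligands.

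Of the 9 tested inhibitors, 7 rose in siYap tumours, 1 fell (Nkd2) and 1 did not pass the test (Sfrp1). Apcdd1 was too low to test. Over all genes tested, 30.8% were called in either direction, 16.0% higher and 14.8% lower, at an adjusted p under 0.05 by edgeR's quasi-likelihood test with Benjamini-Hochberg adjustment. Without siYap replicates 1 and 3, which had the lowest totals, 5 rose and 1 fell. Axin2, Nkd1, Notum, Znrf3 and Rnf43 had every siYap library above every siLuc library, a separation in that direction seen in 5.57% of all tested genes. Of the 10, 0 had every siYap library below every siLuc library, against 5.66% of all tested genes. The median log2 fold change of the 9 tested inhibitors was 1.90, against -0.003 over all tested genes. Because the members were chosen with earlier results of these data known, they are not an independent draw to set against these shares. The siRNA target Yap1 itself had between 2.22 and 4.17 FPKM in siYap libraries and between 8.10 and 11.9 FPKM in siLuc libraries. FPKM is the deposited level, scaled by the authors for gene length and depth.

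**Figure D1:**
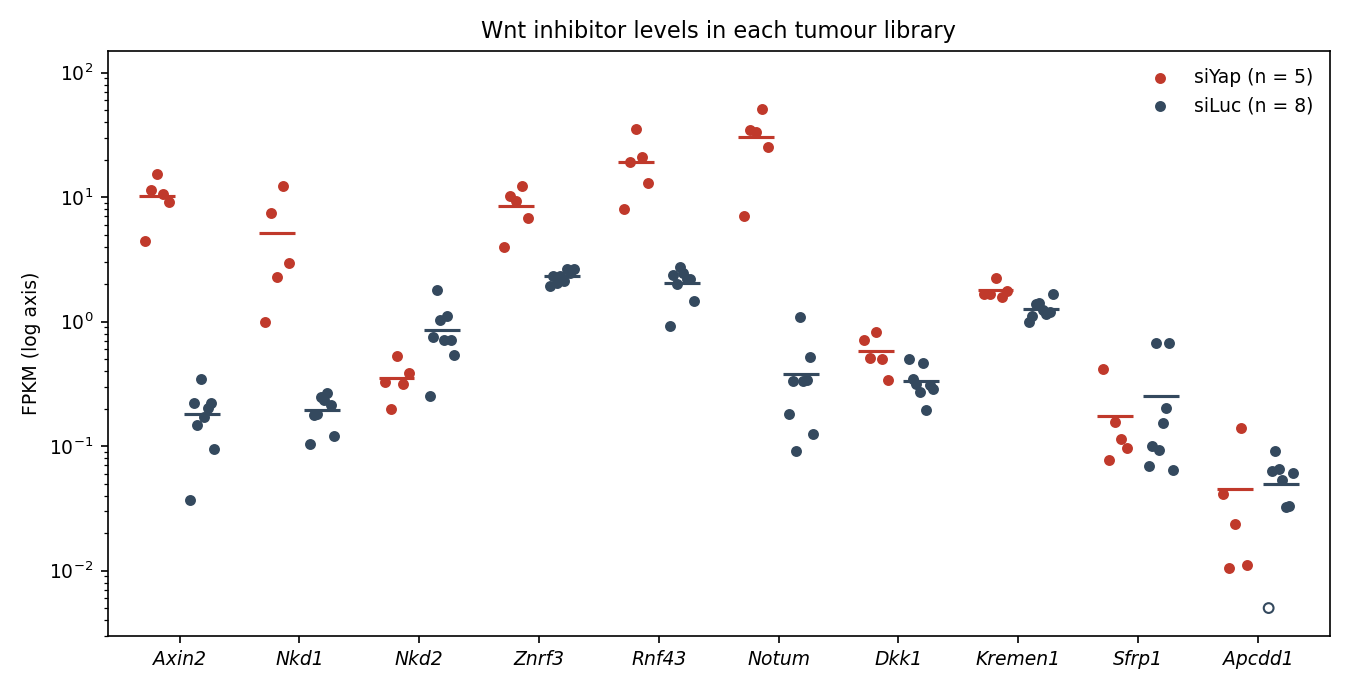
FPKM on a log axis for each of the 10 Wnt inhibitors, with 1 point per library and a bar at the group mean, siYap (n = 5) left of siLuc (n = 8). The open circle marks a siLuc library at 0 for Apcdd1. The groups are separate for Axin2, Nkd1, Znrf3, Rnf43 and Notum and overlap for the other 5 genes.

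Among the intracellular inhibitors, Axin2 rose the most. Axin2 (mouse build mm10, chromosome 11, 108920349 to 108950783, plus strand) had 4.45, 11.4, 15.3, 10.6 and 9.15 FPKM in siYap replicates 1 to 5. In siLuc libraries it ran between 0.0370 and 0.345 FPKM with a median of 0.186 FPKM, so siLuc replicate 4, the highest, was still far below siYap replicate 1, the lowest. These levels rest on 635 to 2010 fragments per siYap library and 6 to 58 fragments per siLuc library. The log2 fold change was 5.82 ± 0.38 (SE), adjusted p = 5.78e-07, and 18 tested genes had a log2 fold change at least this high, Axin2 included. Its paralog Axin1, a constant scaffold of the destruction complex, had 4.5 ± 1.33 FPKM (SD, n = 5) in siYap tumours and 4.42 ± 0.448 FPKM (SD, n = 8) in siLuc tumours. At a log2 fold change of 0.05 ± 0.14 (SE), Axin1 did not pass (adjusted p = 0.80). By group mean, Axin2 stood above Axin1 in FPKM in siYap tumours and below it in siLuc tumours.

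The paralogs Nkd1 and Nkd2 went in opposite directions. Nkd1, on chromosome 8 (88521354 to 88594884, plus strand), had 0.997, 7.49, 2.29, 12.2 and 2.97 FPKM in siYap replicates 1 to 5. Its siLuc levels ran between 0.104 and 0.268 FPKM with a median of 0.197 FPKM, so the groups did not overlap. Its log2 fold change was 4.74 ± 0.46 (SE), adjusted p = 1.05e-05. Nkd2 (chromosome 13, 73818534 to 73847631, minus strand) had 0.326, 0.197, 0.532, 0.318 and 0.388 FPKM in siYap replicates 1 to 5. In siLuc libraries Nkd2 ran between 0.251 and 1.80 FPKM with a median of 0.731 FPKM. siLuc replicate 1, the lowest, lay inside the siYap range, and the other 7 siLuc libraries lay above it. Nkd2 fell by 1.20 ± 0.38 on the log2 scale (SE), adjusted p = 0.0256, against 14.8% of all tested genes called lower. The call of Nkd2 ended without siYap replicate 2 (adjusted p = 0.0599) or replicate 4 (0.0549) in the same edgeR test. It also ended once the file-code digit entered the model (0.0553). The ratio of Nkd1 to Nkd2, in FPKM, ran between 3.06 and 38.3 in siYap libraries and between 0.0999 and 0.413 in siLuc libraries. Nkd1 was the more abundant of the pair, per length, in every siYap library, and Nkd2 in every siLuc library.

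**Figure D2:**
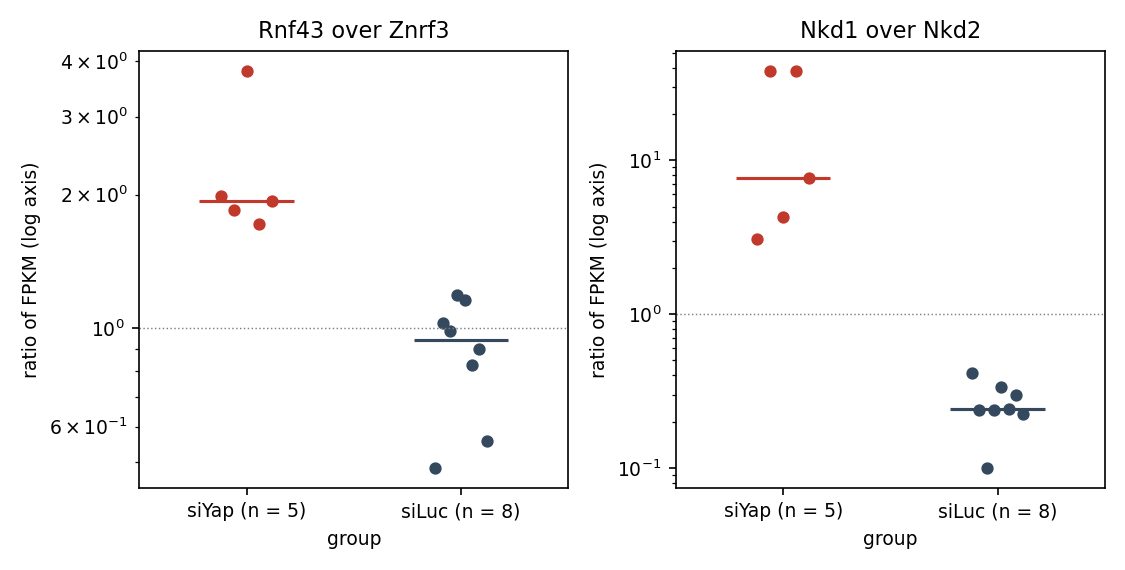
Ratio of FPKM within 2 pairs of related inhibitors on log axes, 1 point per library, with a bar at the group median and a dotted line at 1, siYap (n = 5) left of siLuc (n = 8). Rnf43 over Znrf3 lies between 1.72 and 3.81 in siYap and between 0.484 and 1.19 in siLuc libraries, and Nkd1 over Nkd2 lies above 1 in every siYap and below 1 in every siLuc library.

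The receptor-removing ligases Znrf3 and Rnf43 also rose, and were the highest of the 10 in siLuc tumours by mean FPKM. Znrf3 (chromosome 11, 5276324 to 5444847, minus strand) had 4.01, 10.2, 9.24, 12.2 and 6.77 FPKM in siYap replicates 1 to 5. Znrf3 stayed between 1.92 and 2.64 FPKM in siLuc libraries, with a median of 2.32 FPKM. Rnf43 (chromosome 11, 87662722 to 87735539, plus strand) had 7.97, 19.0, 35.2, 21 and 13.1 FPKM in siYap replicates 1 to 5. Rnf43 ran between 0.930 and 2.77 FPKM in siLuc libraries with a median of 2.20 FPKM. No siYap library overlapped the siLuc range for either ligase. On the log2 scale the fold change was 1.90 ± 0.17 (SE) for Znrf3, adjusted p = 5.99e-06, and 3.25 ± 0.27 (SE) for Rnf43, adjusted p = 4.08e-06. The median ratio of Rnf43 to Znrf3, in FPKM, was 1.94 in siYap and 0.941 in siLuc libraries, and the ranges did not overlap. The coefficient of variation of Znrf3 between libraries was 37.3% in siYap and 11.7% in siLuc.

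Apcdd1, the remaining membrane protein, was at the limit of detection. Apcdd1 (chromosome 18, 62922231 to 62961179, plus strand) had between 1 and 12 fragments in siYap libraries and between 0 and 10 in siLuc libraries. siLuc replicate 1 had 0 fragments, which allows up to 0.0890 CPM (3 fragments of its total); this limit covers counting error only. No difference in Apcdd1 was detectable at this depth.

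Notum, the secreted Wnt lipase, had the largest log2 fold change of the 9 tested inhibitors. Notum (chromosome 11, 120653788 to 120661175, minus strand) had 7.08, 34.8, 33.5, 51.5 and 25.4 FPKM in siYap replicates 1 to 5. Its siLuc levels ran between 0.0919 and 1.09 FPKM with a median of 0.336 FPKM. siLuc replicate 4 stood highest in siLuc and siYap replicate 1 lowest in siYap, and the groups did not overlap. Notum rose by a log2 fold change of 6.33 ± 0.54 (SE), adjusted p = 5.99e-06, and 13 tested genes had one at least this high, Notum included. Exons of Notum share stretches of up to 612 bases with the antisense gene Notumos and 109 bases with Myadml2os, and those of Axin2 share up to 105 bases with Gm11670. The use of strand in counting is not given in the sources used here, so reads within these shared bases cannot be told apart.

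The secreted antagonist Dkk1, its co-receptor Kremen1 and Sfrp1 differed less between the groups, and each had overlapping libraries. Dkk1 (chromosome 19, 30545863 to 30549665, minus strand) had 0.718, 0.506, 0.821, 0.502 and 0.337 FPKM in siYap replicates 1 to 5. In siLuc libraries Dkk1 ran between 0.194 and 0.502 FPKM with a median of 0.312 FPKM. All 5 siYap libraries lay above the siLuc median, and the groups overlapped. Dkk1 passed with a log2 fold change of 0.78 ± 0.29 (SE), adjusted p = 0.0493, from 24 to 54 fragments per siYap library and 14 to 34 per siLuc library. The call held in 4 of 21 alternatives. Leaving out a single library ended it for siYap replicates 1, 2, 3 or 4 and for siLuc replicates 2, 3, 4, 6, 7 or 8, with adjusted p between 0.0641 and 0.154.

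Kremen1 (chromosome 11, 5191552 to 5261558, minus strand) had 1.68, 1.67, 2.23, 1.59 and 1.76 FPKM in siYap replicates 1 to 5. Its siLuc levels ran between 1.0 and 1.67 FPKM with a median of 1.22 FPKM. siLuc replicate 8, the highest, overlapped the siYap range, and the other 7 siLuc libraries lay below it. Kremen1 rose by 0.56 ± 0.15 on the log2 scale (SE), adjusted p = 0.0130. Without siYap replicates 1 and 3 it was 0.35 and did not pass (adjusted p = 0.127), and with counts summed per number in the file names it was 0.45 (adjusted p = 0.0776). With the replicate number as a block it was 0.57 and did not pass (adjusted p = 0.0816). Kremen1 lies 14765 bases from Znrf3 on the same strand. Kremen2, its paralog, had 0.759 ± 0.299 FPKM (SD, n = 5) in siYap and 0.506 ± 0.119 FPKM (SD, n = 8) in siLuc tumours and did not pass the test (adjusted p = 0.123).

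Sfrp1 (chromosome 8, 23411502 to 23449632, plus strand) had 0.420, 0.0779, 0.156, 0.115 and 0.0960 FPKM in siYap replicates 1 to 5. In siLuc libraries it ran between 0.0648 and 0.675 FPKM with a median of 0.127 FPKM. The groups overlapped, and single libraries stood high in each, siYap replicate 1 and siLuc replicates 3 and 7. The log2 fold change of -0.55 ± 0.68 (SE) did not pass the test, adjusted p = 0.560. Without siYap replicate 1 it was -1.20 (adjusted p = 0.229), and once the file-code digit entered the model it was 0.02 (adjusted p = 0.983).

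To show what the members' start sites hold, the promoter window of Axin2, the pair Nkd1 and Nkd2 that went in opposite directions, and Dkk1 are given here. Each is 5′ to 3′ on the gene's strand, from 250 bases before to 50 bases after a RefSeq start site (GRCm38.p6, the assembly of mm10). The RefSeq start site is the GENCODE gene start for Axin2 and Nkd2, but lies 169 bases inside the GENCODE interval for Dkk1 and 6279 bases inside it for Nkd1. RefSeq windows were matched for 5 of the 10 members, these 4 and Rnf43. Capitals mark matches to the Tcf/Lef motif, searched on both strands in 4 spellings, CTTTGAA and also CTTTGAT and also CTTTGTA and also CTTTGTT. The windows are chr11:108920099-108920398 (plus) for Axin2, chr8:88527383-88527682 (plus) for Nkd1, chr13:73847582-73847881 (minus) for Nkd2 and chr19:30549447-30549746 (minus) for Dkk1.
Axin2: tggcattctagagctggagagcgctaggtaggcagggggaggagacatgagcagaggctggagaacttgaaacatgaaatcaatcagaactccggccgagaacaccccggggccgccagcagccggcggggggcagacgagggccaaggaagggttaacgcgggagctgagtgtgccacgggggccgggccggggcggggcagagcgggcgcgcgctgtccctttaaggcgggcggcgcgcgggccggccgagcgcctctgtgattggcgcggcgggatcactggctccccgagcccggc
Nkd1: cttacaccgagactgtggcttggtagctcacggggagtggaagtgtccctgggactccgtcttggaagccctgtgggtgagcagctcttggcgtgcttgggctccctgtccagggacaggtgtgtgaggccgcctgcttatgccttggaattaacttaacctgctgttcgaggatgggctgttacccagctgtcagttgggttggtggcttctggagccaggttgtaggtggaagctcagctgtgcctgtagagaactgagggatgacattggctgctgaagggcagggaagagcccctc
Nkd2: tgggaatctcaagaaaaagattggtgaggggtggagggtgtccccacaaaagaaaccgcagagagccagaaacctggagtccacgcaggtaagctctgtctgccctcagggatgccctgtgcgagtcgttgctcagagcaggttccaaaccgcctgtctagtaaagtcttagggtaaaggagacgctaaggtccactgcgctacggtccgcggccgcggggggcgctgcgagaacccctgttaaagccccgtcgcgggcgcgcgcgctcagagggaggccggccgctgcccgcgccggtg
Dkk1: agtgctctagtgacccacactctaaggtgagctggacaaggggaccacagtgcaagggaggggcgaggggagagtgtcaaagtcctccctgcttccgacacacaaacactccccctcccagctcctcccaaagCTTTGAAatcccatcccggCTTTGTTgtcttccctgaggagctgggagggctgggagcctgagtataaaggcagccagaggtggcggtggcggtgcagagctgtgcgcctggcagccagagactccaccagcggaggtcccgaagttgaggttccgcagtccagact
The Dkk1 window held 2 Tcf/Lef matches, which begin 117 and 98 bases before the RefSeq start site, within the GENCODE gene interval, and do not overlap each other. The windows of Axin2, Nkd1, Nkd2 and Rnf43 held 0 matches. Of 32851 windows in the table, 16.9% held at least 1 match. The hexamer CATTCC, bound by the Tead partners of Yap, was in none of the members' windows on either strand, against 14.7% of all windows. These counts describe the letters of these windows and say nothing of sites elsewhere in the genes.

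The raised members did not change by equal amounts. For each library the log2 CPM of a member was set against that of Axin2. Log2 CPM, here and below, is from counts scaled to the library's total over tested genes, multiplied by edgeR's TMM factor. The group means of this ratio were compared by an exact permutation test (two-sided, 1287 arrangements, smallest possible p 0.000777), with p-values left unadjusted. The ratio of Notum to Axin2 did not pass, with a mean log2 ratio of 0.31 ± 0.55 (SD, n = 5) in siYap and -0.22 ± 0.77 (SD, n = 8) in siLuc, a difference of 0.52 (exact p = 0.218). On log2(FPKM + 0.1) this difference was 0.81 (exact p = 0.0287). Relative to Axin2, Nkd1 fell by 1.57 on the log2 scale (exact p = 0.00466), Rnf43 fell by 2.65 and Znrf3 fell by 3.99 (exact p = 0.000777 each), so each rose by less than Axin2. For the other 5 members this ratio mostly repeats the rise of Axin2 and is not given.

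The order of the members by level, in FPKM, differed between the groups. In siYap tumours it ran Notum, Rnf43, Axin2, Znrf3, Nkd1, Kremen1, Dkk1, Nkd2, Sfrp1 and Apcdd1. In siLuc tumours it ran Znrf3, Rnf43, Kremen1, Nkd2, Notum, Dkk1, Sfrp1, Nkd1, Axin2 and Apcdd1. Neighbours in both orders overlapped in range, except Kremen1, which lay above Dkk1 in all 5 siYap libraries with no overlap. Axin2 was next to last in siLuc tumours at 0.180 ± 0.0928 FPKM (SD, n = 8). The 10 genes together summed to between 27.7 and 110.1 FPKM in siYap libraries and between 5.0 and 9.66 FPKM in siLuc libraries.

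**Figure D3:**
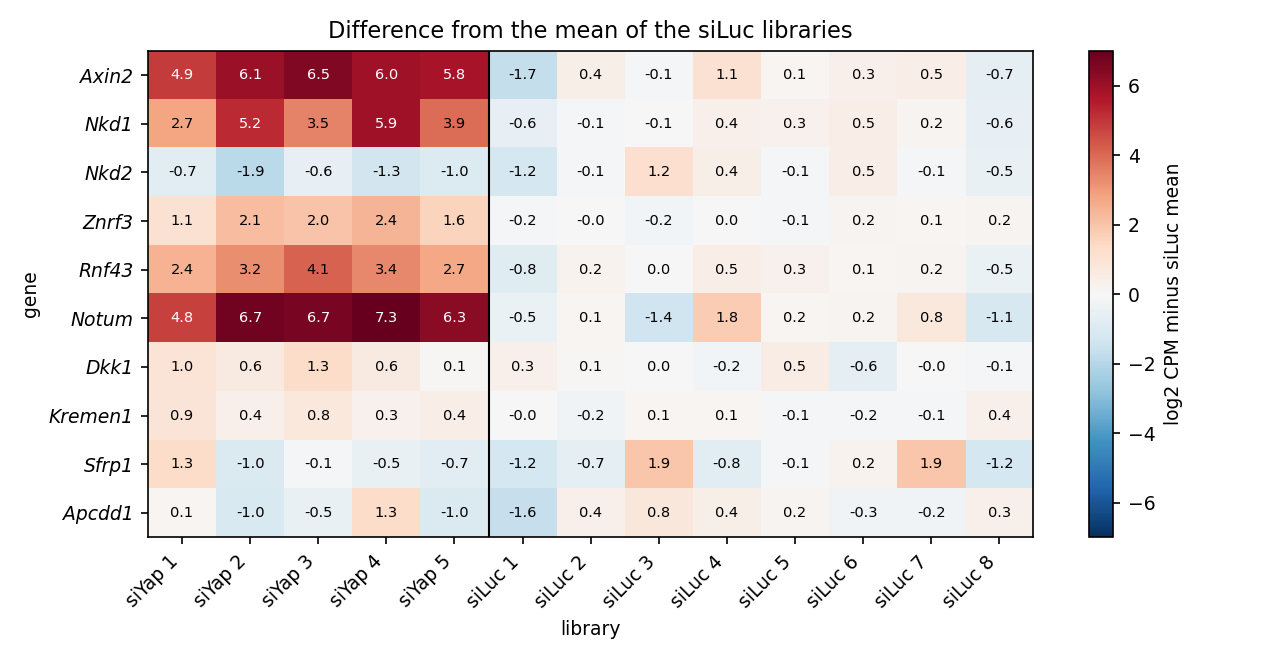
Log2 CPM of each inhibitor (rows) in each library (columns), minus the mean of the 8 siLuc libraries, red for higher and blue for lower; siYap libraries are left of the black line and siLuc libraries right of it. Axin2, Nkd1, Znrf3, Rnf43 and Notum are red in all 5 siYap libraries, and siYap replicate 1 is the palest of the 5 for each of them.

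The 5 strongly raised genes shared an order of libraries in part. siYap replicate 1, which had the lowest total of all libraries (23637021 fragments), had the lowest siYap level of each of Axin2, Nkd1, Notum, Znrf3 and Rnf43. siYap replicate 3, with the next lowest total (25801886 fragments), was highest for Axin2 and Rnf43, and siYap replicate 4 for Nkd1, Notum and Znrf3. The same siYap libraries were lowest and highest for these genes in log2 CPM. Yap1 was lowest in siYap replicate 4 (2.22 FPKM) and had 4.08 FPKM in siYap replicate 1 and 4.17 FPKM in replicate 2. In siLuc tumours, replicate 4 had the highest Axin2, Notum and Rnf43, and replicate 1 had the lowest FPKM of 7 of the 10 members. Of these 7, the lowest siLuc log2 CPM was in replicate 8 for Nkd1, replicate 3 for Znrf3 and replicate 2 for Kremen1. The siYap replicates 1 and 2 share a number in their file names, as do replicates 3 and 4. Within these pairs Nkd1 differed 7.51-fold and 5.33-fold, Notum 4.91-fold and 1.54-fold, and Axin2 2.55-fold and 1.44-fold. Among siLuc libraries, replicates 1 and 2 share a number and differed 5.94-fold for Axin2, 1.85-fold for Notum and 1.71-fold for Nkd1. siLuc replicates 5, 6 and 7 share another, with Axin2 between 0.171 and 0.224 FPKM. Over all 5 siYap libraries, the highest Nkd1 level was 12.2 times the lowest, the Notum level 7.27 times and the Axin2 level 3.44 times.

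The first digit of the code in the file names (6, 7 or 8) splits the libraries into 3 sets, each with both treatments, and its meaning is not given by the labels. Within digits 6, 7 and 8 the difference of mean log2 CPM was 6.10, 5.83 and 6.42 for Axin2, and 4.31, 4.44 and 4.49 for Nkd1. It was 5.92, 6.68 and 7.39 for Notum, 1.72, 2.18 and 1.37 for Znrf3, and 3.15, 3.53 and 3.16 for Rnf43. The sign held in each set for these 5 genes, and for Nkd2 (-0.65, -1.28 and -0.44), Dkk1 (0.58, 1.02 and 0.22) and Kremen1 (0.77, 0.54 and 0.08). Sfrp1 differed in sign between sets, at 1.10, -0.96 and 0.50. Digit 8 holds 1 library per treatment.

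Genes with a library profile close to that of Axin2 were ranked by the root mean square difference of log2 CPM over the 13 libraries. Each profile was centred on its own mean and left unscaled. The gap between the groups is part of this distance, so a fold change near that of Axin2 brings a gene close. Likeness between libraries within a group was not measured apart from it. Among genes outside the 10, the closest were Nxpe2 (0.598), Lgr5 (0.616), Cyp2e1 (0.616), Cyp2c38 (0.658) and Tbx3 (0.668). Lgr5 is an R-spondin receptor, Cyp2e1 a pericentral cytochrome and Tbx3 a T-box repressor, and Cyp2c38 belongs to a family with near-identical copies. Cyp2e1 had 4525 ± 1907 FPKM (SD, n = 5) in siYap and 156 ± 142 FPKM (SD, n = 8) in siLuc tumours. Nxpe2 had 38.0 ± 26.8 FPKM in siYap and 0.730 ± 0.335 FPKM in siLuc tumours. Of the 10 inhibitors, Notum was at 0.689 (rank 7 of all tested genes), Nkd1 at 1.08 (rank 26), Rnf43 at 1.34 (rank 53) and Znrf3 at 2.04 (rank 211).

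A wider set of 26 Wnt inhibitors that holds none of the 10 was counted beside them. Of its 18 tested genes, 1 rose (Igfbp4) and 4 fell, beside 16.0% of all tested genes called higher and 14.8% called lower. The median log2 fold change was 0.23. For the 10 named genes the counts were 7 and 1 of 9 tested, with a median of 1.90. Ctnnbip1, which blocks the binding of beta-catenin to Tcf factors, had 1.10 ± 0.534 FPKM in siYap (SD, n = 5) and 3.96 ± 0.845 FPKM in siLuc tumours (SD, n = 8; log2 fold change -1.77 ± 0.32, adjusted p = 0.000919). Cby1, another beta-catenin antagonist, had 4.70 ± 1.47 FPKM in siYap and 9.75 ± 2.82 FPKM in siLuc tumours (adjusted p = 0.00239). Igfbp4, an IGF-binding protein that also inhibits Wnt receptors, had 262 ± 62.6 FPKM in siYap and 164 ± 24.2 FPKM in siLuc tumours (adjusted p = 0.00188). Sfrp5, a secreted Wnt-binding protein, had 0.122 ± 0.124 FPKM in siYap and 2.03 ± 2.80 FPKM in siLuc tumours (log2 fold change -3.91 ± 1.19, adjusted p = 0.0241). The Sfrp5 call ended without siYap replicate 3 (0.0635) or 5 (0.0509), and its log2 fold change was -3.16 without siLuc replicate 2 and -4.74 without siYap replicate 1. Without siYap replicates 1 and 3 it was -4.54 and did not pass (0.0729). The fourth to fall, Dact1, a Dishevelled-binding protein, was called at an adjusted p of 0.0492 and lost the call in 17 alternatives. The Dkk1 relatives Dkk2 (adjusted p = 0.265) and Dkk3 (0.205) did not pass.

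**Figure D4:**
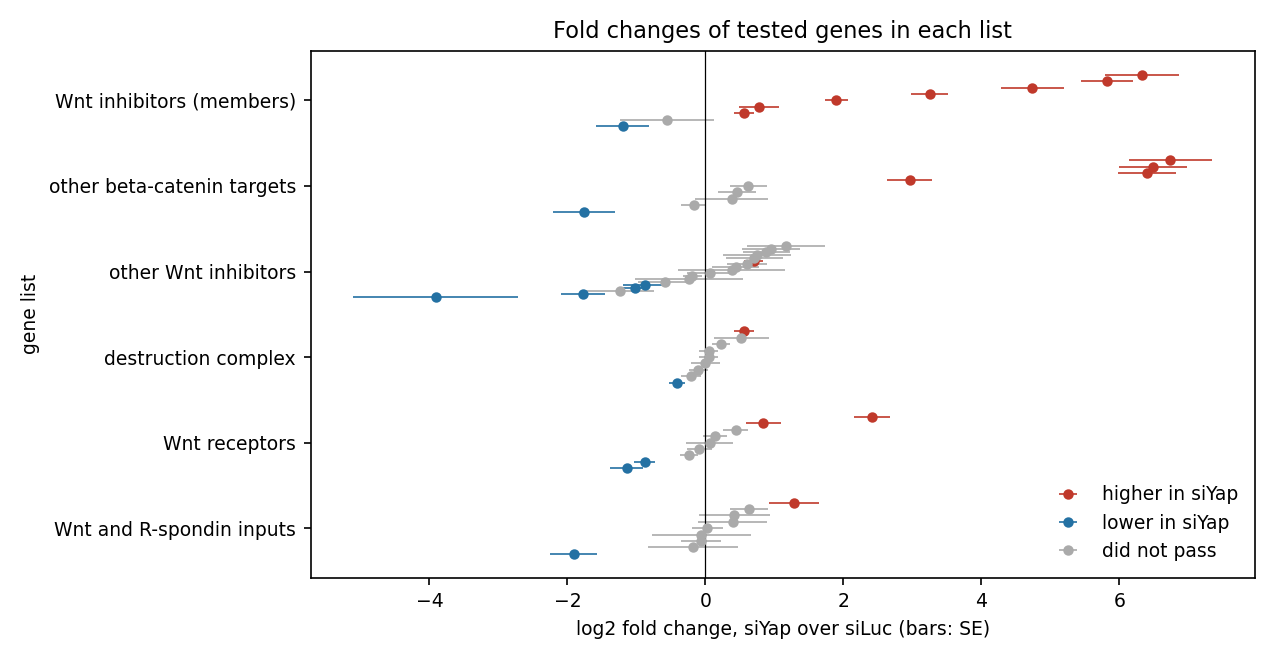
Log2 fold change, siYap over siLuc, of every tested gene in 6 gene lists (rows), with SE bars, red for genes called higher, blue for genes called lower and grey for genes that did not pass at an adjusted p under 0.05. Genes with a log2 fold change above 2 are found among the 10 inhibitors, the other beta-catenin targets and, for Lrp5, the receptors.

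Among 10 other genes known as beta-catenin targets, 4 of 9 tested rose (Lgr5, Sp5, Tbx3 and Tcf7), beside 16.0% of all tested genes. Sox9 fell by 1.76 on the log2 scale (adjusted p = 0.0102), beside 14.8% of all tested genes called lower. Without siYap replicate 1 the log2 fold change of Sox9 was -2.53. Myc, Ccnd1, Cd44 and Lef1 did not pass, with Ccnd1 at 17.2 ± 5.35 FPKM in siYap and 19.4 ± 3.01 FPKM in siLuc tumours (adjusted p = 0.488). Of the 9 tested genes of the destruction complex, Gsk3b was called higher (0.56 ± 0.15, adjusted p = 0.0114) and Fbxw11 lower (-0.41 ± 0.11, adjusted p = 0.0141). Over all tested genes, 30.8% were called in either direction. The median log2 fold change of these 9 genes was 0.05. The calls of Gsk3b and Fbxw11 ended without siYap replicates 1 and 3 together (adjusted p = 0.159 and 0.0881).

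The receptors on which Znrf3, Rnf43, Dkk1 and Kremen1 act were called in both directions, 2 of 9 tested higher and 2 lower. Over all tested genes, 16.0% were called higher and 14.8% lower. Lrp5 had 13 ± 8.18 FPKM in siYap and 2.48 ± 0.444 FPKM in siLuc tumours (log2 fold change 2.42 ± 0.26, adjusted p = 1.84e-05). Lrp6 had 21.2 ± 3.61 FPKM in siYap and 24.8 ± 2.90 FPKM in siLuc tumours and did not pass (adjusted p = 0.182). Fzd7 fell to 5.48 ± 0.405 FPKM in siYap, against 10.1 ± 2.34 FPKM in siLuc tumours (adjusted p = 0.000711), and Fzd5 fell to 2.17 ± 0.674 FPKM in siYap, against 4.78 ± 1.69 FPKM in siLuc tumours (adjusted p = 0.00239). Fzd8 had 4.48 ± 1.44 FPKM in siYap and 2.51 ± 0.584 FPKM in siLuc tumours (adjusted p = 0.0210), and lost the call without siYap replicate 3 (0.0567) or 4 (0.0666). Of 9 tested Wnt and R-spondin ligands and secretion factors, Wnt2b rose and Wnt4 fell, to be read beside the same shares. Wnt4 had 0.823 ± 0.322 FPKM in siYap and 3.35 ± 1.43 FPKM in siLuc tumours (adjusted p = 0.000898). Wnt2b had 0.553 ± 0.380 FPKM in siYap and 0.232 ± 0.0675 FPKM in siLuc tumours (adjusted p = 0.0149), and lost the call without siYap replicate 3 (0.0825) or without replicates 1 and 3 (log2 fold change 0.45, 0.345). Rspo3, Wnt2 and Wnt9b, made by endothelial cells of the central vein in normal liver, did not pass (adjusted p = 0.556, 0.955 and 0.850).

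Markers of other cell types were read in the same libraries, beside the 30.8% of all tested genes called in either direction. All 4 measured neutrophil markers were called higher, with a summed level of 153 to 1145 FPKM in siYap and 33.3 to 185 FPKM in siLuc libraries. These 4 calls held without any single library, and 3 held without siYap replicates 1 and 3. Of 6 macrophage markers 3 were called lower (Emr1, Clec4f and Csf1r), with sums of 22.2 to 47.4 FPKM in siYap and 44.5 to 123 FPKM in siLuc libraries. The other 3 did not pass. Cd68 had a log2 fold change of 0.59 (adjusted p = 0.113), Vsig4 of -1.72 (0.0723) and Marco of -1.45 (0.263). Csf1r lost its call without siYap replicate 2 (adjusted p = 0.0663) or 5 (0.0676). Clec4f lost its call without siYap replicates 1 and 3 together (0.0688) and with counts summed per number in the file names (0.0796). Of 7 cholangiocyte markers 3 were called lower, and the sums, mostly Spp1, were 161 to 1141 FPKM in siYap and 1939 to 5055 FPKM in siLuc libraries.

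The remaining marker lists had 2 calls or fewer, most of which rested on single libraries. Of 7 endothelial markers 2 were called higher, Lyve1 and Stab2, and Stab2 (adjusted p = 0.0437) lost its call in 13 alternatives. Of 7 stellate cell and fibroblast markers 2 were called higher, Col1a1 and Lrat. Lrat (log2 fold change 1.68, adjusted p = 0.0472) lost its call in 14 alternatives and had a log2 fold change of 0.90 without siYap replicate 1 (adjusted p = 0.253). Without siYap replicates 1 and 3, 1 endothelial marker and 0 stellate cell and fibroblast markers were called. Of 5 tested lymphocyte markers 1, Cd3g, was called lower (adjusted p = 0.0493), a call lost in 18 alternatives. Of 7 hepatocyte markers 1, Fgb, was called lower and lost its call without siYap replicate 3 (adjusted p = 0.0580) or 4 (0.0542). The hepatocyte sums overlapped, at 11959 to 20529.6 FPKM in siYap and 16326 to 26046 FPKM in siLuc libraries. No measured marker of these lists was at 0 in all libraries. The part of these cell types in the member results was not tested.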

How the data were processed

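The 13 tumour RNA-seq libraries (ScriptSeq Complete Gold kit, HiSeq2500, per the labels' protocols) were read from 1 table per library. The submitters' processing notes name build mm10 with Cuffdiff 2.1.1, Cufflinks, TopHat2 2.0.8 and Trimmomatic 0.30, and neither their roles, the annotation nor the use of strand is stated. The authors deposited estimated counts (raw fragments) and FPKM, per the file headers. The scaling of the FPKM is not given, and it does not follow the library total alone. Kremen1 had 1.68 FPKM from 354 fragments in siYap replicate 1. It had 1.67 FPKM from 291 fragments in siYap replicate 2, which had the larger total. Totals ran from 23637021 to 37043914 fragments per library. Alb, Apob and Trf, listed at 0 with a mark for too much depth, were left out, and estimated counts were rounded.

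siYap was tested against siLuc over all 13 libraries with edgeR 4.0.16 in R 4.3.3 (robust quasi-likelihood F test, TMM, default filter by group, no covariates). P-values were adjusted by Benjamini-Hochberg over 15132 genes and called under 0.05. The test was checked on simulated counts. Each SE is the log2 fold change divided by the square root of F, and levels are deposited FPKM as mean ± SD (n = 5 siYap, n = 8 siLuc). Ratios to Axin2 used log2 CPM with a prior count of 2 and exact permutations, printed unadjusted. The members were not chosen independently of these data, so these p-values can be too small, adjusted or not. Positions are from GENCODE M21 (GRCm38).

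Every pair of same-group libraries differed by more than sampling noise (chi-square over degrees of freedom at least 35.1). Alternatives used DESeq2 1.42.0, limma 3.58.1, other scalings and filters, a block, file-name terms and each library left out. The members and lists were chosen with earlier results of these data known. All members, up to 4 called genes per pathway list with the smallest p, the 5 genes closest to Axin2 and Yap1 were named by rule. Axin1, Kremen2, Dkk2, Dkk3, Dact1, Lrp6, Ccnd1, Myc, Cd44, Lef1, Sox9, Rspo3, Wnt2, Wnt9b and the cell type markers fall outside it and were named after their values were seen.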

Additional observations from a re-analysis of the deposited data

Results flagged for a closer look

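Of the members, 4 FPKM values stood apart from their group. Their gap to the nearest library, as a share of the range, was above Dixon's critical value. Among 20 groups of member values examined, chance flags about 1 in 20 if the values are normally distributed, which was not tested. The rule was applied to FPKM and not to log2 values.

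Kremen1 had 2.23 FPKM in siYap replicate 3, against 1.76 FPKM in the next siYap library. In log2 CPM this replicate did not stand apart. It lay 0.76 above the siLuc mean, and siYap replicate 1 lay higher, at 0.88. Sfrp1 had 0.420 FPKM in siYap replicate 1, against 0.156 FPKM in the next. Its log2 CPM there lay 1.27 above the siLuc mean, and siYap replicate 3 came next at -0.13. Apcdd1 had 0.139 FPKM in siYap replicate 4, against 0.0416 FPKM in the next, from 12 fragments. Its log2 CPM there lay 1.31 above the siLuc mean, and siYap replicate 1 came next at 0.12. Notum had 1.09 FPKM in siLuc replicate 4, against 0.516 FPKM in the next siLuc library. Without siLuc replicate 4 its log2 fold change was 6.79. In log2 CPM, Notum in siLuc replicate 4 lay 1.78 above the siLuc mean, and siLuc replicate 7 came next at 0.75. For Sfrp1, Apcdd1 and Notum the gap was a smaller share of the range in log2 CPM than in FPKM.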

How the results depend on the processing

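Axin2, Nkd1, Notum, Znrf3 and Rnf43 were called higher under every alternative that gave them a value, 22 for Nkd1 and 24 for each of the others, with the lowest log2 fold changes on log2(FPKM + 1) for Axin2 (3.16), Notum (4.31), Rnf43 (2.61) and Znrf3 (1.45). Nkd1 ran between 4.17 and 5.26. Members called higher numbered 5 to 7 under all alternatives. Members called lower numbered 0 under the replicate block, a model with the file-code digit, limma on log2(FPKM + 1) or log2(FPKM + 0.1), where Nkd2 was below the filter, and an adjusted p under 0.01, and 0 to 1 when leaving out each library in turn. Nkd2 ran between -1.53 and -0.96. Nkd1, Nkd2, Dkk1 and Sfrp1 were below the filter of both limma fits, and Dkk1 and Sfrp1 below the stricter count filter, so these gave them no value. The log2 fold change of Sfrp1 was 0.02 with the file-code digit in the model, and the cause was not tested.

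Other Wnt inhibitors called higher numbered 2 with DESeq2's Wald test, 3 with that digit, 0 at a log2 fold change of at least 1 and 1 to 2 without single libraries. Those called lower numbered 2 under both limma fits, the replicate block, an adjusted p under 0.01 and without siYap replicates 1 and 3, and 2 to 4 without single libraries. Over all genes, 2422 were called higher and 2246 lower. These counts were 1186 and 1112 under the replicate block, 1264 and 1098 at an adjusted p under 0.01, 1053 and 939 at a log2 fold change of at least 1, and 1512 and 1472 without siYap replicates 1 and 3, an alternative added after seeing the data. The labels do not say that the replicate numbers shared by the groups pair them. Replicates 1 and 2 of both groups carry the file-code digit 6, and replicates 3 and 4 of both carry 7. Replicate 5 carries 7 in siLuc and 8 in siYap. The correlations given next cannot exclude a weak pairing. Deviations of same-numbered libraries correlated between -0.12 and 0.127 over genes, and 1 of 5 siYap libraries correlated best with its own number. The block used 10 libraries and left 0 of the 4 neutrophil, 0 of the 3 macrophage and 3 of the 3 cholangiocyte marker calls. Against TMM, DESeq2's size factors moved the median of all genes by -0.002 and upper-quartile scaling by -0.011 on the log2 scale. Apcdd1, Dkk1, Sfrp1 and Nkd2 rest on few fragments, which limits what could be detected.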
